A study of Glycine max with 12 samples.

Results

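Propiconazole (PPZ) is a triazole that inhibits brassinosteroid synthesis, and its effect on the soybean (Glycine max) root tip was measured here by RNA-seq against mock treatment. The comparison took 6 of the 12 libraries of the series, 3 of PPZ-treated and 3 of mock-treated root tips, and every annotated gene with enough reads to be tested. Seedlings of the PPZ group had received 0.1 μM PPZ for 2.5 days and those of the mock group no PPZ and no brassinolide. All seedlings were 10.5 days old, of cultivar Wm82 by the sample labels and of another genotype by the study's methods, and the apical 1 cm of the root was collected. The labels do not say to which treatment time the mock seedlings were matched. A further 3 libraries, from root tips given 0.01 nM brassinolide (BL), an active brassinosteroid, for 0.5 days, served to test where PPZ differed from the other single treatment. The labels call this agent BL and the design text of the series eBL, so that its exact form is uncertain, and BL is used here for it. The remaining 3, given PPZ for 2 days and then BL for 0.5 days, enter only a plot. Replicates were biological according to the study's methods.

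Brassinosteroids are perceived at the cell surface by the receptor kinase BRI1. The signal inactivates the kinase BIN2, and factors of the BZR1 and BES1 family then act on target genes. In the root tip the pathway is known for its part in meristem size and in cell elongation, where it acts on genes that loosen the cell wall. Triazoles such as PPZ act on cytochrome P450 enzymes, among them those of brassinosteroid synthesis.

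The count table listed 52872 annotated genes, and the 6 libraries held between 18450894 and 24815541 counts. Mock 1 stood apart from the other mock libraries. In log2 CPM its Euclidean distance over the tested genes was 93.7 to mock 2 and 110.3 to mock 3, against 63.1 between mock 2 and mock 3 and 52.0 to 74.4 among PPZ libraries, whereas the median distance of a mock library to PPZ was at least 164.0. At most 2.01% of tested genes had equal counts in a pair of libraries of 1 group. Of the markers of other organs, Rubisco small subunit genes summed to 332.4 to 413.7 CPM in mock and 151.0 to 210.1 CPM after PPZ. Of the 4 tested, 2 were called lower, or 1 without PPZ 1 or PPZ 3. The shares over all tested genes were 6.33% called higher and 2.81% called lower. Genes with a cupin domain, listed as a marker of seed, summed to 682.9 to 1647 CPM in mock and 1793 to 2277 CPM after PPZ. Of 34 tested, 4 were called higher and 2 lower. They were listed by this Pfam entry alone, so that they need not be seed storage genes, and their part in the results was not tested. Leaf chlorophyll a/b-binding genes summed to 167.6 to 320.5 CPM in mock and 185.0 to 248.3 CPM after PPZ. None of the 4 tested root cap genes was called by edgeR or DESeq2, and 2 were higher at an unadjusted p under 0.05. The share of all tested genes at this unadjusted p was not worked out, here or below.

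Of 35673 annotated genes tested, 2259 were higher and 1001 were lower after PPZ, which is 9.14% of those tested (6.33% higher and 2.81% lower). Calling a gene took a fold change of at least 3 and, in edgeR's quasi-likelihood test, a p adjusted by Benjamini-Hochberg that did not exceed 0.01. Without the fold criterion 6984 genes (19.6%) passed, 11.3% higher and 8.25% lower. DESeq2 was run on more genes, 45565, of which 6.35% were higher and 3.07% lower. Among the 35673 genes above, DESeq2 called 2744 higher and 1289 lower. Mock and PPZ libraries did not overlap in 54.8% of all tested genes and in every called gene. The median log2 fold change was 2.50 among genes called higher and -2.32 among those called lower, while that of all tested genes was 0.003. Genes called higher took 2.05% to 2.58% of the counts in mock and 11.55% to 13.03% after PPZ, and genes called lower took 3.76% to 4.84% in mock and 0.82% to 0.88% after PPZ. A change of 10-fold or more was fitted for 635 of the genes called higher and 226 of those called lower. The counts moved with the libraries used, to 3049 higher and 1419 lower (8.37% and 3.9%) without mock 1, and to 1189 and 545 (3.28% and 1.5%) without mock 2, 1382 and 485 without PPZ 1, and 1233 and 392 without PPZ 2, and the lower count to 643 without PPZ 3.

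**Figure D1:**
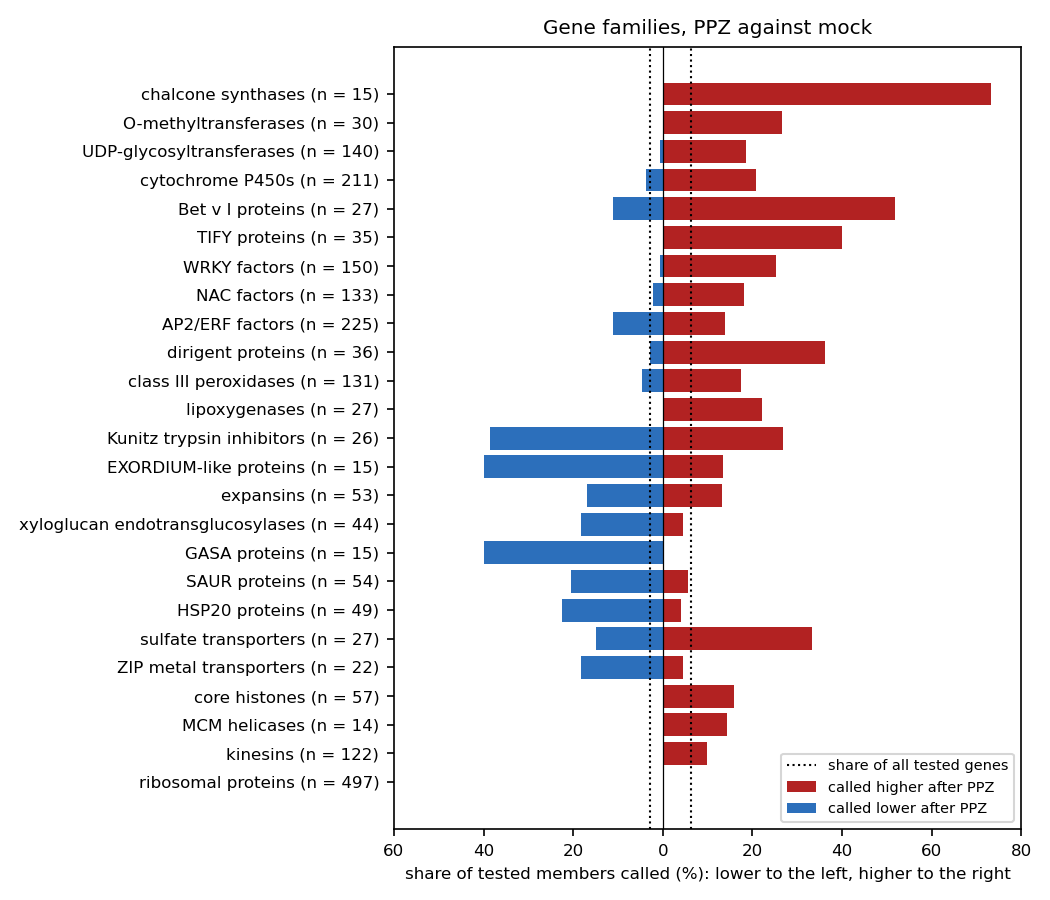
Share of the tested members of 25 gene families (y axis, number tested in brackets) that were called higher (red, to the right) or lower (blue, to the left) after PPZ, in percent (x axis). The dotted lines are the shares over all tested genes, 6.33% higher and 2.81% lower. Chalcone synthases, Bet v I proteins and TIFY proteins have the longest red bars, EXORDIUM-like and GASA proteins and Kunitz trypsin inhibitors the longest blue bars, and ribosomal proteins have none.

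Expression is given as CPM, reads per gene brought to a common sequencing depth with TMM factors, in the order of replicates 1, 2 and 3, and changes as log2 fold change ± standard error. Several of the largest fitted increases were in genes without a read in mock, for which only a lower bound on the fold can be given. Glyma.19G002400, annotated with a peptidase C26 domain and located on chromosome 19 from 168091 to 170387, was at 0 in all 3 mock libraries and at 30.7, 30.1 and 18.8 CPM with PPZ, a rise of at least 184-fold (adjusted p = 4.15e-04). Glyma.02G054200 (SABATH2), a carboxyl methyltransferase gene, was at 0 in mock and at 8.43, 20.8 and 29.9 CPM with PPZ, a rise of at least 137-fold (adjusted p = 1.83e-03). These bounds set the libraries without counts at 3 counts each. In all, 39 genes called higher had no count in any mock library, and 12 called lower had none in any PPZ library. Among the 10 genes with the largest fitted rise were also Glyma.02G156100, a cytochrome P450 gene at least 57.0-fold higher, Glyma.08G129300, of the Casparian strip protein family and at least 46.0-fold higher, and Glyma.12G030300, a dirigent gene at least 22.3-fold higher. BL had its own levels of these genes. Glyma.02G156100 averaged 7.30 CPM after BL, against 7.09 to 9.48 CPM after PPZ, whereas Glyma.02G054200 averaged 0.355 CPM after BL and was higher after PPZ than after BL (log2 fold change 5.88, adjusted p = 5.15e-04). The call of Glyma.02G054200 against mock was lost without PPZ 2 (adjusted p = 0.0101).

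Of the genes without a count after PPZ, those with the largest bounds belonged to the expansin, ferric reductase and malate channel families. The expansin gene Glyma.03G225900 (chromosome 3, 43981255 to 43983162) was at 24.0, 24.8 and 22.3 CPM in mock and without a count after PPZ, at least 158-fold lower (adjusted p = 2.21e-04). Glyma.10G231600 carries a ferric reductase NAD binding domain. The ferric reductase family was set by Pfam entry alone, so that its members need not all reduce iron. Glyma.10G231600 was at 16.8, 17.7 and 10.4 CPM in mock and at 0 after PPZ, at least 99.7-fold lower (adjusted p = 5.45e-04). The summed level of this family was higher after PPZ, at 2618, 1938 and 1563 CPM, against 1083, 918.5 and 1104 CPM in mock. Of its 21 tested members (median 0.28), 0 were called higher and 1 lower. Glyma.10G173400 (ALMT16), of the malate channel family, was at 8.34, 19.4 and 15.5 CPM in mock and at 0 after PPZ, at least 96.0-fold lower (adjusted p = 9.25e-04). The mock and PPZ libraries did not overlap for any of these genes, as for every called gene and for 54.8% of all tested genes. The expansin also had no count in the BL libraries, and ALMT16 averaged 1.02 CPM there.

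By absolute level, the largest rise was in Glyma.17G030200, a Bet v I gene, from 1249, 708 and 1213 CPM in mock to 3595, 3360 and 4221 CPM after PPZ (log2 fold change 1.83 ± 0.29, adjusted p = 3.53e-03). The largest fall was in Glyma.17G147400, annotated as an expansin, from 2868, 2324 and 3608 CPM to 981, 839 and 771 CPM (log2 fold change -1.76 ± 0.24, adjusted p = 2.14e-03). It was far lower again after BL, at 66.7 CPM on average. The aquaporin gene Glyma.19G186100 fell from 1852, 1296 and 1307 CPM to 273, 306 and 381 CPM, and the lectin gene Glyma.09G150400 from 1051, 1078 and 1683 CPM to 175, 207 and 148 CPM. In each of these genes the groups were apart, as they were in every called gene. The call of Glyma.17G030200 was lost without mock 2 or any given PPZ library (adjusted p up to 0.0154), and that of Glyma.17G147400 without PPZ 2 or PPZ 3 (up to 0.0175).

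None of the BRI1, BIN2, BES1, BZL, BZR and CYP90A15 genes, identified by symbol or Pfam entry, was called by edgeR or DESeq2. CYP90A15 was the only synthesis gene identified by symbol. Of sterol enzyme families set by Pfam entry, steroid 5-alpha-reductase-like enzymes had 0 of 8 tested members called by edgeR or DESeq2. Sterol desaturases had 1 of 19 higher and 1 lower, squalene epoxidases 1 of 9 higher and oxidosqualene cyclases 1 of 4 higher. Emopamil-binding sterol isomerases had 0 of 3 called, or 1 higher with DESeq2. Over all tested genes, 6.33% were higher and 2.81% lower. Other synthesis enzymes were not singled out. At an unadjusted p under 0.05, 1 BRI1 gene and 2 of the BES1 and BZL factors were lower, and 1 of those factors and CYP90A15 were higher. The receptor genes BRI1A (Glyma.06G147600) and BRI1B (Glyma.04G218300) had log2 fold changes of -0.39 ± 0.11 (adjusted p = 0.0325) and 0.18 ± 0.13 (adjusted p = 0.305). BRI1A was at 65.2, 58.9 and 58.0 CPM in mock and 50.4, 46.8 and 41.5 CPM after PPZ. Its groups were apart, as were those of 54.8% of all tested genes, although the threshold was missed. BIN2 (Glyma.13G228100) was at 51.0, 35.4 and 44.6 CPM in mock and 53.9, 53.7 and 52.0 CPM after PPZ (log2 fold change 0.29 ± 0.14, adjusted p = 0.145), and its groups were also apart. The 8 BES1 and BZL factors with a RefSeq symbol lay between -0.66 and 0.66, and the 14 tested members of the BZR family by Pfam had a median of -0.03. CYP90A15 (Glyma.11G228900), whose Arabidopsis relatives act in brassinosteroid synthesis, was at 2.80, 1.78 and 1.31 CPM in mock and 3.03, 4.42 and 3.58 CPM after PPZ (log2 fold change 0.92 ± 0.33, adjusted p = 0.0595). Its groups were apart by a narrow margin, and the change did not pass the test.

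TIFY proteins, which include the JAZ repressors of jasmonate signalling, were among the families with the most increases. Of 35 tested members among 37 annotated, 14 were called higher and 0 lower, with a median log2 fold change of 0.85. Glyma.07G041400 rose from 4.93, 2.15 and 2.98 CPM to 130, 111 and 95.9 CPM (5.07 ± 0.31, adjusted p = 2.72e-04) and differed from BL by 1.47 (adjusted p = 1.74e-03), less than the fold threshold, so that it was not called. Summed over the family, CPM was 665.6, 756.8 and 816.4 in mock and 2122, 1839 and 1629 after PPZ. Lipoxygenases, which catalyse the entry into jasmonate and other oxylipin synthesis, had 6 of 27 tested members called higher and 0 lower (median 1.36). Of all tested genes, 6.33% were called higher. Glyma.08G189500 stood at 37.1, 30.3 and 64.7 CPM in mock and 710, 778 and 832 CPM after PPZ, all PPZ libraries far above mock (4.15 ± 0.31, adjusted p = 4.22e-04). With 64.7 CPM on average, BL left it near the highest mock library, and the difference between PPZ and BL was 3.59 (adjusted p = 3.24e-04). The number of TIFY genes called higher fell to 9 without PPZ 2, and that of lipoxygenases to 3 without mock 2 or PPZ 2 and rose to 9 without mock 3.

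**Figure D2:**
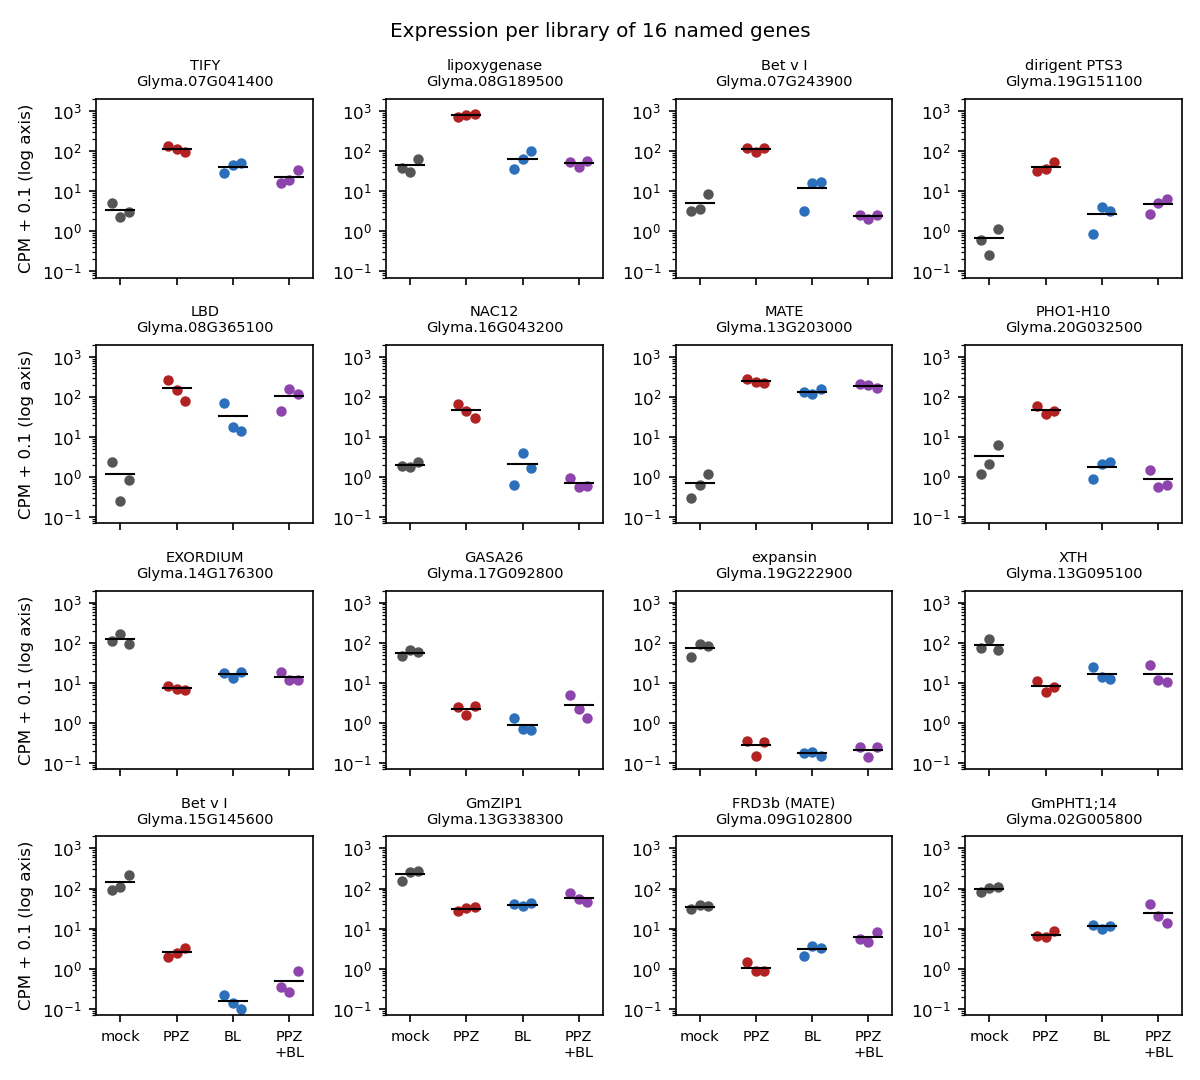
CPM plus 0.1 (log axis) of 16 genes, picked for display from the named genes after their values were seen, in mock, PPZ, BL and PPZ plus BL libraries (x axis). Points are the 3 libraries of a group and lines their mean. Lipoxygenase Glyma.08G189500 and NAC12 lie high only in the PPZ group of this plot, while EXORDIUM gene Glyma.14G176300 and expansin Glyma.19G222900 lie low in all 3 treated groups.

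Genes of phenylpropanoid and flavonoid synthesis were higher after PPZ at several steps. Of 10 phenylalanine and related ammonia lyases, which open the pathway, 3 were called higher, among them PAL1.3 (Glyma.03G181600) at 2.80, 2.57 and 5.84 CPM in mock and 16.5, 24.1 and 32.5 CPM after PPZ (2.71 ± 0.38, adjusted p = 2.26e-03). Chalcone synthases, which make the first flavonoid intermediate, had 11 of 15 tested members called higher and 0 lower (22 annotated, median 2.60), against 6.33% of all tested genes. CHS6 (Glyma.09G075200) was at 0.305, 0.367 and 0.572 CPM in mock and 4.88, 8.04 and 21.4 CPM after PPZ, with PPZ 3 well above the other PPZ libraries (4.76 ± 0.67, adjusted p = 2.25e-03). The sum over the family rose less, from 1275, 1067 and 1674 CPM to 2012, 2685 and 3406 CPM. Of 8 chalcone isomerases, CHI1A (Glyma.20G241500) was called, with 138, 89.2 and 146 CPM in mock and 284, 387 and 556 CPM after PPZ (1.73 ± 0.30, adjusted p = 4.66e-03). Near-identical chalcone synthase copies can share reads, so that the split of reads among them is uncertain. The count of chalcone synthases called higher was 6 without mock 2 or PPZ 3 and 7 without PPZ 2, and that of ammonia lyases was 1 without mock 2, 0 without PPZ 2 and 2 without PPZ 3. The call was lost for CHI1A without mock 2, PPZ 2 or PPZ 3 (adjusted p up to 0.0199), for PAL1.3 without mock 2 or PPZ 2 (0.0125) and for CHS6 without mock 2 (0.0138).

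Several large enzyme families of secondary metabolism and detoxification followed, and of all tested genes 6.33% were called higher and 2.81% lower. O-methyltransferases had 8 of 30 tested members called higher and 0 lower (median 1.17), and UDP-glycosyltransferases, which attach sugars to small molecules, had 26 of 140 higher and 1 lower (median 0.70). Of 211 tested cytochrome P450 genes, 44 were higher and 8 lower (median 0.56). Glutathione S-transferases, which couple glutathione to reactive compounds, had 10 of 54 higher and 0 lower (median 0.59), with Glyma.05G161300 at 0.0509, 0.105 and 0.367 CPM in mock and 7.09, 7.99 and 9.62 CPM after PPZ (5.43 ± 0.47, adjusted p = 5.43e-04). Of 127 2OG oxygenases, 31 were higher and 8 lower. Glyma.02G257700 of this family went from 0.203, 0.472 and 0.612 CPM to 41.1, 34.0 and 37.9 CPM (6.41 ± 0.28, adjusted p = 1.92e-04). Dirigent proteins, which direct the coupling of phenolic radicals, had 13 of 36 tested members higher and 1 lower. PTS3 (Glyma.19G151100) was at 0.509, 0.157 and 1.06 CPM in mock and 31.1, 34.6 and 52.6 CPM after PPZ (6.03 ± 0.49, adjusted p = 4.81e-04). Leaving out mock 2 took the higher counts to 4 for O-methyltransferases, 11 for glycosyltransferases, 23 for P450 genes and 5 for glutathione S-transferases. Without PPZ 2 they were 3, 13, 25 and 5, with 7 dirigent genes, without PPZ 1 they were 4, 15, 27 and 5, and without PPZ 3 they were 4, 15, 28 and 5. The number of P450 genes called lower was 18 without mock 1 and 15 with DESeq2, but 3 without mock 2 or PPZ 1, 2 without PPZ 2 and 4 without PPZ 3. Lower 2OG oxygenases numbered 3 without mock 2, PPZ 1 or PPZ 2, and lower glycosyltransferases 6 and glutathione S-transferases 3 without mock 1.

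Defence proteins changed in both directions. Bet v I proteins are known as pathogenesis-related proteins. Of 27 tested members, 14 were called higher and 3 lower (median 1.83), against 6.33% and 2.81% of all tested genes. Their summed level was 3016, 2068 and 3739 CPM in mock and 9754, 9466 and 11339 CPM after PPZ. Glyma.07G243500 was uneven in mock, at 22.4, 47.4 and 194 CPM, and stood at 1441, 1438 and 1734 CPM after PPZ (4.14 ± 0.78, adjusted p = 6.34e-03). It averaged 46.3 CPM after BL, and PPZ was higher by 5.06 on the log2 scale (adjusted p = 1.38e-04). Its call against mock was lost without mock 2 or any given PPZ library (adjusted p up to 0.0299). Other members moved the opposite way. Glyma.15G145600 fell from 93.3, 109 and 223 CPM to 1.90, 2.41 and 3.24 CPM (-5.80 ± 0.43, adjusted p = 4.15e-04). It was lower again after BL, at 0.0548 CPM on average.

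Kunitz trypsin inhibitors were divided in the same way, with 7 of 26 tested members higher and 10 lower (median -0.26). Glyma.15G211500 rose from 1.02, 8.39 and 15.6 CPM to 737, 417 and 789 CPM (6.28 ± 0.89, adjusted p = 2.27e-03), and Glyma.09G163800 fell from 1416, 770 and 832 CPM to 55.6, 80.1 and 47.8 CPM (-4.03 ± 0.34, adjusted p = 5.03e-04). Chitinases, which cut fungal wall polymers, had 9 of 30 higher and 1 lower, and class III peroxidases, which use hydrogen peroxide in the wall, 23 of 131 higher and 6 lower. Peroxidase Glyma.15G128800 was at 6.26, 1.1 and 1.31 CPM in mock and 156, 149 and 158 CPM after PPZ (5.76 ± 0.65, adjusted p = 1.06e-03). The NB-ARC receptors that detect pathogens had 17 of 309 higher and 13 lower, a share of 9.71% against 9.14% of all tested genes. Over all tested genes, 6.33% were higher and 2.81% lower. Without mock 2, 9 NB-ARC genes were higher and 7 lower, without PPZ 1 or PPZ 2, 10 were higher, and without PPZ 2, 3 were lower. The count of Bet v I proteins called higher was 9 without PPZ 2. That of peroxidases was 12 without mock 2 or PPZ 2 and 15 without PPZ 3, and lower peroxidases numbered 12 without mock 1, 11 with DESeq2 and 2 without PPZ 2. Lower Kunitz genes numbered 4 without any given PPZ library, and higher ones 3 without mock 2 and 4 without PPZ 3, and the call of Glyma.15G211500 was lost without mock 2 (adjusted p = 0.0150).

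**Figure D3:**
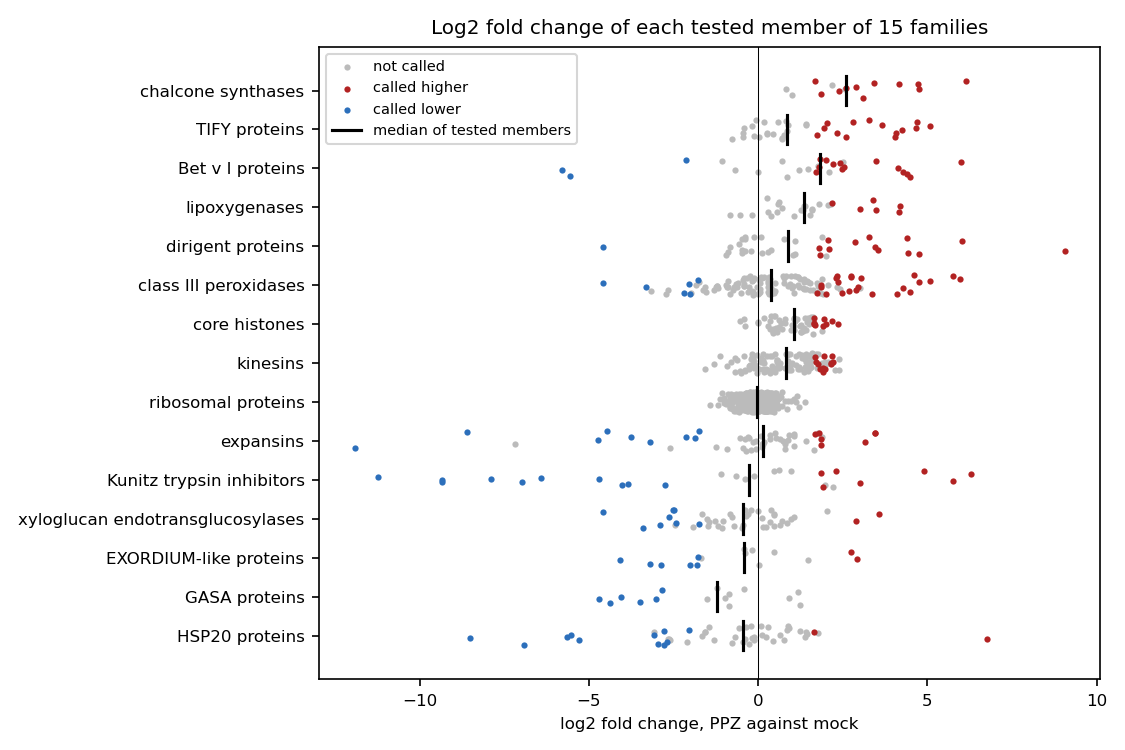
Log2 fold change of PPZ against mock (x axis) for each tested member of 15 families (y axis), with called members in red (higher) or blue (lower), other members in grey and the family median as a black bar. Chalcone synthases and TIFY proteins have calls on the right only and GASA proteins on the left only, while Bet v I proteins, expansins and Kunitz trypsin inhibitors have calls on both sides.

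Among transcription factor families, WRKY factors, known in defence, had 38 of 150 tested members called higher and 1 lower (median 0.58), against 6.33% and 2.81% of all tested genes. NAC factors had 24 of 133 higher and 3 lower, and AP2/ERF factors, which include ethylene response factors, 31 of 225 higher and 25 lower. NAC12 (Glyma.16G043200) rose from 1.78, 1.68 and 2.33 CPM to 67.4, 43.8 and 30.0 CPM (4.60 ± 0.33, adjusted p = 4.05e-04), with PPZ 1 highest, and it averaged 1.97 CPM after BL. In the LBD family, named for factors at lateral organ boundaries, 7 of 43 were higher and 3 lower. Glyma.08G365100 was at 2.34, 0.157 and 0.735 CPM in mock and 256, 150 and 80.7 CPM after PPZ (7.24 ± 0.80, adjusted p = 1.00e-03), and LBD30 (Glyma.07G091600) at 11.1, 3.56 and 5.43 CPM in mock and 341, 194 and 108 CPM after PPZ (5.00 ± 0.58, adjusted p = 1.17e-03). Both rose in every PPZ library, to levels that differed several-fold among these libraries. The bHLH factors had 14 of 172 higher and 13 lower, together 15.7% against 9.14% of all tested genes, and Glyma.12G178500 fell from 32.5, 123 and 141 CPM to 3.85, 1.96 and 3.43 CPM (-4.99 ± 0.60, adjusted p = 1.32e-03). Without mock 2 the higher counts were 23 for WRKY, 9 for NAC and 17 for AP2/ERF factors. Without PPZ 1, 11 NAC factors were higher, and without PPZ 2, 11 NAC and 14 AP2/ERF factors. Lower AP2/ERF factors numbered 12 without mock 2, 9 without PPZ 1, 7 without PPZ 2 and 13 without PPZ 3. For bHLH factors, 7 were higher and 7 lower without mock 2, 6 and 6 without PPZ 1, and 5 and 4 without PPZ 2. Lower NAC factors numbered 6 without mock 1 and 1 without PPZ 2, and lower LBD factors 1 without mock 2 or any given PPZ library.

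In several families tied to growth hormones and wall loosening, the share called lower was above the 2.81% of all tested genes. GASA proteins, small peptides named for their response to gibberellin, had 6 of 15 tested members called lower and 0 higher (median -1.21), although 2 were higher without mock 1. The groups overlapped in the summed level of this family, at 843.8, 622.4 and 457.3 CPM in mock and 503.3, 567.3 and 405.0 CPM after PPZ. GASA26 (Glyma.17G092800) fell from 45.8, 66.3 and 57.0 CPM to 2.36, 1.46 and 2.56 CPM (-4.71 ± 0.25, adjusted p = 2.21e-04), and GASA29 (Glyma.17G258200) from 69.6, 66.3 and 42.4 CPM to 2.62, 2.76 and 3.19 CPM (-4.37 ± 0.24, adjusted p = 2.22e-04). GA3OX1 (Glyma.04G071000), named for the enzyme that makes bioactive gibberellin, was at 3.61, 1.52 and 0.694 CPM in mock and at 0.0514, 0 and 0 CPM after PPZ (adjusted p = 4.49e-03). EXORDIUM-like proteins, whose founding member promotes brassinosteroid-dependent growth in Arabidopsis, had 6 of 15 lower and 2 higher, or 4 lower without PPZ 2. Glyma.14G176300 fell from 109, 164 and 94.8 CPM to 8.17, 6.99 and 6.67 CPM (-4.07 ± 0.25, adjusted p = 2.72e-04), whereas Glyma.08G071300 rose from 26.3, 24.1 and 31.1 CPM to 195, 174 and 176 CPM (2.75 ± 0.14, adjusted p = 2.21e-04). For each of these genes the mock and PPZ libraries did not overlap, as for every called gene. The call of GA3OX1 was lost without mock 2 or any given PPZ library (adjusted p up to 0.0238).

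Xyloglucan endotransglucosylases, which cut and rejoin wall polymers, had 8 of 44 lower and 2 higher (median -0.46), and expansins 9 of 53 lower and 7 higher (median 0.13), against 2.81% lower and 6.33% higher over all tested genes. Expansin Glyma.19G222900 fell from 43.5, 95.3 and 81.4 CPM to 0.257, 0.0503 and 0.242 CPM (-8.59 ± 0.50, adjusted p = 2.51e-04). Expansin Glyma.18G054000 rose from 15.7, 4.82 and 4.90 CPM to 117, 104 and 57.2 CPM (3.46 ± 0.53, adjusted p = 2.94e-03). SAUR proteins, many of them rapidly induced by auxin, had 11 of 54 lower and 3 higher (median -0.09). Their summed level was not lower, at 299.9, 293.6 and 303.1 CPM in mock and 308.2, 311.3 and 357.6 CPM after PPZ. GH3 enzymes, which attach amino acids to auxin or jasmonate, had 3 of 13 higher, and cytokinin dehydrogenases, which break down cytokinin, 3 of 12 higher, with 0 lower in either. For GH3 gene Glyma.05G101300 the level was 5.65, 8.28 and 13.4 CPM in mock, 83.7, 60.6 and 67.2 CPM after PPZ and 6.21 CPM on average after BL. Aux/IAA and ARF proteins, the core of auxin response, had 5 of 107 higher and 2 lower, together 6.54%, below the 9.14% of all tested genes, and 1 was higher without mock 2 or PPZ 2 and 2 without mock 3, PPZ 1 or PPZ 3. Higher GH3 genes numbered 1 without mock 2 or PPZ 2, and cytokinin dehydrogenases 1 without PPZ 2. Higher expansins numbered 3 without mock 2 or PPZ 1 and 4 without PPZ 2, and higher SAUR genes 0 without mock 2, PPZ 2 or PPZ 3. Lower SAUR genes numbered 3 without mock 2, PPZ 1 or PPZ 2 and 6 without PPZ 3, and lower xyloglucan endotransglucosylases 4, 3, 1 and 2 without these libraries. The call of Glyma.18G054000 was lost without mock 2, PPZ 1 or PPZ 2 (adjusted p up to 0.0141).

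The calls among cell division genes rested on the libraries used. MCM helicases, which open DNA for replication, had a median log2 fold change of 1.77, with 2 of 14 tested members called higher and 0 lower. Core histones had 9 of 57 higher (median 1.06), kinesins, motors of microtubules, 12 of 122 (median 0.83), and cyclins 10 of 71 with 1 lower (median 0.37). Over all tested genes 6.33% were higher and 9.14% were called in either direction. The called share of kinesins, at 9.84%, was close to the latter, but all 12 called kinesins were higher. The summed level of MCM genes was 156.3, 67.6 and 57.9 CPM in mock and 339.9, 312.3 and 232.6 CPM after PPZ, with mock 1 between the other mock libraries and PPZ. That of kinesins was 1696, 1274 and 1229 CPM in mock and 2078, 2044 and 1763 CPM after PPZ. Leaving out a library also moved the share of all tested genes called higher, to 8.37% without mock 1 and 3.28% without mock 2. All genes called higher numbered 1382 without PPZ 1 and 1233 without PPZ 2, against 2259 with all libraries. Without mock 1, the numbers called higher in these families were 12 MCM, 19 histone, 48 kinesin and 20 cyclin genes. Without mock 2 they were 0, 2, 0 and 2, without mock 3 or any given PPZ library 0 MCM genes were called, without mock 3 there were 3 histone, 3 kinesin and 4 cyclin genes, and without PPZ 1 they were 1, 0 and 3. Without PPZ 2 they were 2, 0 and 2, and without PPZ 3 kinesins numbered 2 and cyclins 6. DESeq2 called 10, 12, 24 and 17 of them higher. Tubulin genes, at 4523 CPM in mock 1 against 2462 and 1968 CPM in mock 2 and mock 3, had no such rise, with 1 of 38 called, lower. Ribosomal protein genes had 0 of 497 called by edgeR and by DESeq2, with 45 higher and 92 lower at an unadjusted p under 0.05. The part of mock 1 in these results was not tested beyond leaving it out.

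**Figure D4:**
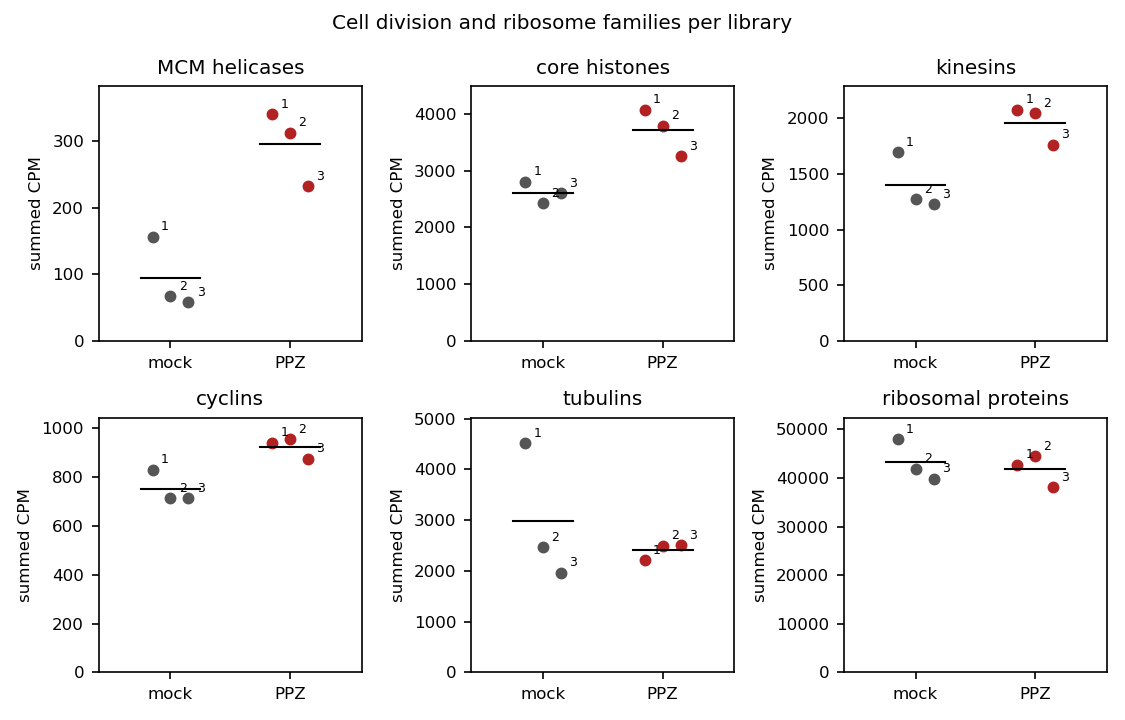
Summed CPM (y axis, from 0) of 6 gene families in each mock and PPZ library (x axis), with replicate numbers beside the points and the mean of 3 libraries as a line. Mock 1 is the highest mock library in all 6 families, PPZ lies above mock for MCM helicases, histones, kinesins and cyclins, and the groups overlap for tubulins and ribosomal proteins.

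Metal transporters were mostly lower where they were called. ZIP transporters, which import zinc and iron, had 4 of 22 tested members lower and 1 higher, and NRAMP and vacuolar iron transporters had 2 of 15 and 2 of 9 lower, with 0 higher, against 2.81% lower over all tested genes. No NRAMP gene was called lower without mock 2 or any given PPZ library and 1 without mock 3, no vacuolar iron transporter without mock 2, PPZ 1 or PPZ 2, and 2 ZIP genes without PPZ 2. GmZIP1 (Glyma.13G338300) fell from 158, 257 and 268 CPM to 26.9, 33.1 and 33.6 CPM (-2.86 ± 0.23, adjusted p = 5.00e-04), and Glyma.20G022500 from 4.68, 23.3 and 34.7 CPM to 0.0514, 0.0503 and 0.0484 CPM, about 1 count in each PPZ library (adjusted p = 1.47e-03). FRD3b (Glyma.09G102800), named for a citrate exporter that aids iron transport in Arabidopsis, fell from 30.4, 38.7 and 35.7 CPM to 1.39, 0.754 and 0.774 CPM (-5.16 ± 0.25, adjusted p = 2.21e-04). DMT1 (Glyma.17G165200), of the NRAMP family that carries divalent metals, went from 31.1, 101 and 109 CPM to 11.0, 13.9 and 14.6 CPM (-2.60 ± 0.45, adjusted p = 4.56e-03). Mock 1 was the lowest mock library for each of these 4 genes, but lay above the PPZ libraries. The call of DMT1 held only without mock 1 and was lost without any other library (adjusted p up to 0.0239), and that of Glyma.20G022500 was lost without PPZ 2 (0.0106).

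GmPHT1;14 (Glyma.02G005800), a phosphate importer gene, fell from 81.0, 105 and 110 CPM to 6.27, 5.98 and 8.41 CPM (-3.83 ± 0.20, adjusted p = 2.21e-04). GmPHT1;1 and GmPHT1;2 had log2 fold changes of 0.36 ± 0.16 (adjusted p = 0.105) and 0.47 ± 0.22 (adjusted p = 0.134) and were not called. PHO1-H10 (Glyma.20G032500), of the PHO1 family of phosphate exporters, rose from 1.12, 1.99 and 6.37 CPM to 60.2, 36.5 and 45.0 CPM (3.88 ± 0.57, adjusted p = 2.58e-03), and BL left it at 1.71 CPM on average. Potassium transporter genes GmKT1 and GmKT2 had log2 fold changes of -1.64 ± 0.18 (adjusted p = 1.05e-03) and -2.27 ± 0.27 (adjusted p = 1.27e-03). GmVIT2, for iron transport into the vacuole, had -1.91 ± 0.30 (adjusted p = 3.29e-03), GmZIP2 had -2.02 ± 0.39 (adjusted p = 6.94e-03) and the molybdate transporter gene GmMOT1 had -1.75 ± 0.28 (adjusted p = 3.49e-03). The study chose these transporter genes, PHO1-H10 aside, on these samples, so that their direction is not independent evidence. Its qRT-PCR had GmPHT1;14, the GmKT and GmZIP genes, GmVIT2 and GmMOT1 lower after PPZ, the direction found here. It also had GmPHT1;2 repressed by PPZ, whereas here this gene averaged 31.0 CPM in mock and 42.6 CPM after PPZ. The study's text gives no identifier for GmPHT1 genes, and they were matched here by RefSeq symbol. Calls were lost for GmVIT2 and GmZIP2 without mock 2 or any given PPZ library (adjusted p up to 0.0185 and 0.0294), for GmMOT1 without mock 2, mock 3, PPZ 1 or PPZ 2 (0.0184) and for PHO1-H10 without mock 2, PPZ 1 or PPZ 2 (0.0151), and GmKT1 fell below the fold threshold without mock 3 or PPZ 1. Sulfate transporters had 9 of 27 higher and 4 lower, against 6.33% and 2.81% of all tested genes. The number higher fell to 4 without PPZ 1 or PPZ 2, and the number lower to 2 without mock 2, mock 3 or PPZ 1 and to 1 without PPZ 2. MATE gene Glyma.13G203000 had the largest change among transporters that rose, from 0.203, 0.524 and 1.06 CPM to 277, 236 and 221 CPM (8.62 ± 0.43, adjusted p = 2.21e-04). It averaged 135 CPM after BL.

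Small heat shock proteins of the HSP20 family had 11 of 49 tested members lower and 2 higher, against 2.81% and 6.33% of all tested genes. Their summed level was 259.9, 356.9 and 555.0 CPM in mock and 211.6, 203.4 and 182.9 CPM after PPZ, with mock 3 highest. The number called lower depended on the libraries, with 4 without mock 2, 7 without mock 3, 1 without PPZ 1, 0 without PPZ 2 and 2 without PPZ 3, and with 20 under DESeq2.

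Some genes called in the same direction lay side by side. Of 3260 called genes, 729 formed 313 runs of at least 2 neighbouring tested genes called alike. Of 35568 adjacent pairs of tested genes, 416 were called alike, and 139 of these shared a Pfam entry. The number of such pairs that the shares of called genes alone would give was not worked out. The longest runs were of 8 genes. On chromosome 9, between 39591465 and 39706372, 8 Kunitz inhibitor genes were lower, with log2 fold changes from -11.22 to -3.84, and on chromosome 18, between 2496245 and 2539426, 8 lipid transfer protein genes were lower, from -8.05 to -3.68. Among the runs that rose were 5 P450 genes on chromosome 9 (2.68 to 4.15), 4 dirigent genes on chromosome 19 (2.87 to 6.03), 4 Bet v I genes on chromosome 17 (1.83 to 4.27) and 4 peroxidase genes on chromosome 15 (2.73 to 5.96). Without any given PPZ library, 3 of the 8 Kunitz genes and 7 of the 8 lipid transfer protein genes were called. Of the 5 P450 genes, 1 was called without mock 2, PPZ 2 or PPZ 3 and 3 without PPZ 1, and of the Bet v I and of the dirigent genes 2 were called without PPZ 2. Such neighbours can be near-identical copies that share reads, and members of a run are then not separate measurements.

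Against BL, tested without the mock libraries, 1729 of 35837 genes were higher and 716 lower after PPZ, 6.82% of those tested (4.82% higher and 2% lower). The treatments differed in length, 2.5 days of PPZ and 0.5 days of BL, so that agent and time cannot be told apart. Bet v I proteins had 9 of 29 tested members higher and 0 lower, WRKY factors 30 of 152 higher and 2 lower, and Kunitz inhibitors 11 of 20 higher and 0 lower with a median of 2.04. Kinesins had 1 of 124 higher and 0 lower (median -0.36), and at an unadjusted p under 0.05 by edgeR 11 were higher and 64 lower. DESeq2 also called 1 higher and 0 lower, and the edgeR call was absent without BL 1, BL 2 or PPZ 2. MCM helicases had 0 of 14 called by edgeR or DESeq2, with 4 lower at an unadjusted p under 0.05. For these unadjusted counts the share of all tested genes was not worked out. For transporters, GmZIP1 differed by -0.34 (adjusted p = 0.0509) and GmPHT1;14 by -0.70 (adjusted p = 0.0113) between PPZ and BL, and neither was called. GASA26 was higher after PPZ than after BL by 1.38 (adjusted p = 0.0204, not called), and GASA29 lower by 2.10 on the log2 scale (adjusted p = 4.09e-04).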

How the data were processed

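RNA-seq libraries of root tips were analysed, 3 per group, from the raw read counts per gene that the authors deposited without normalization. The authors aligned reads to a Phytozome genome with HISAT2 2.0.5 and counted them with featureCounts 1.5.0-p3. Gene identifiers are of the Wm82.a4.v1 annotation. Deposited FPKM columns (12) and columns of the authors' own DESeq2 comparisons (log2 fold changes and p-values) were not used. The kit is not stated to mark strand, so overlapping genes cannot be told apart.

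Counts were filtered with filterByExpr, normalised by TMM and fitted for the 6 libraries of a comparison with glmQLFit and glmQLFTest (edgeR 4.0.16, R 4.3.3). P-values were adjusted over all rows tested, the 980 loci outside the annotation included, and the thresholds were 0.01 for the adjusted p and 3 for the fold change. Standard errors were taken from the log2 fold change and F, as their ratio with F under a square root. CPM values use TMM factors of all 12 libraries. Bounds on folds set 3 counts per library for a group without counts and cover counting error only. The fit was tested on simulated data.

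Families were set by Pfam entry in the deposited descriptions. Genes with a symbol were matched by position to RefSeq (Glycine_max_v4.0) at an overlap of at least 0.8, which matched 33783 of 47068 protein-coding genes, 1979 of them with a symbol. Lists by RefSeq description could not be built, since that table holds no descriptions, and symbols were used after the files were seen. The symbol CYP51 belonged to a cyclophilin gene and was dropped. The members and lists were chosen with earlier results of these data known. Named genes were the 10 largest rises and falls, the 5 largest rises and falls in CPM, the 2 largest of each direction per list, each with 10 counts or more in all libraries of its higher group and with groups apart, the transporters of the study and the RefSeq brassinosteroid genes. From these, the text gives those with the fullest description. Alternatives were DESeq2 1.42.0, median-ratio (RLE) size factors, library size alone, no filter, a filter at a mean of 50 counts, replicate number as a blocking factor, a joint fit over 12 libraries, glmTreat at a fold of 3, dropping the fold threshold, and fits with a library left out in turn. Tables were made with pandas 2.3.3 and NumPy 2.4.6 in Python 3.11.15, and figures with Matplotlib 3.10.9.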

Additional observations from a re-analysis of the deposited data

Results flagged for a closer look

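Loci outside the annotation, which enter no comparison above, also carried signal. Of 624 such loci tested, 35 were called higher and 58 lower after PPZ by edgeR, 14.9% against 9.14% of annotated genes.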

How the results depend on the processing

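Called genes named by the rule kept their direction in each alternative that tested them (with a mean of at least 50 counts, 175 of the 237 named genes were tested). The counts of genes called against mock moved most with a test against a fold of 3, to 374 higher and 128 lower, and without a fold threshold, to 4041 and 2943. Over the fits that each left out a library they lay between 1189 and 3049 higher and between 392 and 1419 lower. DESeq2 gave 2895 and 1399 over 45565 genes. Library size alone gave 2042 and 1229 and moved the median of all genes to -0.117. Against BL, the counts were 1349 to 1710 higher and 495 to 717 lower without a library, and 377 were lower with a mean of at least 50 counts. Replicate numbers did not pair the libraries, with correlations of same-numbered PPZ and mock libraries of -0.0627, -0.0096 and 0.0877. With the replicate number as a block, 1720 genes were higher and 677 lower against mock, and 1587 and 574 against BL.

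Of 237 named genes, DESeq2 and RLE size factors changed no call, the block took 55 below the threshold, and leaving out a library took between 7 (mock 1) and 98 (PPZ 2). Genes that were not called and changed sign were BES1-10, at -0.06 with library size alone and between -0.07 and 0.16 without a library, BES1-11, between -0.16 and 0.06, BES1-9, between -0.1 and 0, and BES1-1, between -0.21 and 0.05 without a library. The causes were not tested. Promoter motifs, a planned description, were not run because no promoter sequence was used here.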

Other observations

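Some families stood out by their share of called members and were chosen after their values were seen, so that they carry no test. Over all tested genes, 6.33% were called higher and 2.81% lower. Plant cysteine oxidases, which act in oxygen sensing in Arabidopsis, had 10 of 19 tested members higher and 0 lower (median log2 fold change 1.66), but 0 were higher without mock 2, 3 without PPZ 1 and 1 without PPZ 2. Glyma.17G187300 was at 36.8, 44.3 and 62.5 CPM in mock and 454, 285 and 174 CPM after PPZ, apart from mock in every library. Glyma.18G204200, with a thiamine pyrophosphate enzyme domain, was at 202, 315 and 406 CPM in mock and 1739, 1349 and 836 CPM after PPZ (edgeR, adjusted p = 4.13e-03), and averaged 152 CPM after BL. Its call against mock was lost without mock 2, PPZ 1 or PPZ 2 (adjusted p up to 0.0219). PPZ 1 was the highest and PPZ 3 the lowest PPZ library for both genes, as for LBD gene Glyma.08G365100.

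Aluminium-activated malate transporters had 7 of 19 tested members lower and 1 higher (median -1.89), with 5 to 10 lower when a library was left out. ALMT34 (Glyma.20G216800) was at 6.72, 27.5 and 26.3 CPM in mock and 0.103, 0 and 0 CPM after PPZ. Carboxyl methyltransferases of the SABATH family, some of which make methyl jasmonate or methyl salicylate in other plants, had 5 of 9 tested members higher and 1 lower, or 3 higher without mock 2, mock 3 or PPZ 3 and 2 without PPZ 2, and Glyma.18G238800 rose from 1.68, 2.41 and 7.68 CPM to 103, 68.8 and 117 CPM. Cysteine-rich receptor kinases had 25 of 91 higher and 2 lower, or 13 higher without mock 2 and 16 without PPZ 1. Phloem protein 2 lectins had 8 of 25 higher and 0 lower, led by Glyma.14G073300, at 8.65, 7.02 and 9.51 CPM in mock and 501, 374 and 210 CPM after PPZ (edgeR, adjusted p = 2.97e-04). Putative phosphatases had 5 of 9 higher, or 3 without mock 2, mock 3, PPZ 1 or PPZ 2, with Glyma.07G011900 at 9.97, 12.4 and 16.2 CPM in mock, 531, 358 and 247 CPM after PPZ and 11.4 CPM on average after BL.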
